A study of Mus musculus with 2 samples.

Results

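Barhl1/Atoh1/Evx1 neurons, labelled here as rhombic-lip and dorsal neurons, were found among cranial neural crest cells (CNCCs) sorted from E11.5 mouse heads. They were chosen by their UMIs (random tags that mark single captured transcripts). A cell belonged to the set if it held 3 or more UMIs of the neuronal genes Elavl3 and Stmn2 together, 2 or more of Barhl1, Atoh1 and Evx1 together, at most 1 of the mesenchyme genes Prrx1, Prrx2 and Twist1, and none of the glial gene Sox10. Cells with both Isl1 and Pou4f1, a pair found in sensory neurons, were left out. Of 11212 cells that passed the filters, 482 met this rule, 198 of 5625 in the control library and 284 of 5587 in the mutant library.

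The control embryos (Tfap2HET) carried 1 floxed and 1 wild-type copy of both targeted genes (Tfap2a wt/flox, Tfap2b wt/flox), and their mutant siblings (Tfap2NCKO) were Tfap2a flox/flox and Tfap2b flox/flox. Both groups shared 2 copies of the mTmG reporter (r26 mTmG/mTmG) and the Wnt1CRE transgene. Wnt1 regulatory sequence is active in the dorsal neural tube as well as in neural crest progenitors, so the sort for GFP keeps any cell in whose history the driver was on, neurons of the dorsal tube included. The tissue was the head down to the level of the otic vesicle, arch 2 included, and the cells of 2 embryos were pooled into each of the 2 libraries. With 1 library per group there was no replicate error and no test. Every bracket holds a 95% interval of counting error alone, exact Clopper-Pearson for shares, exact Poisson for levels and exact conditional binomial for log2 ratios. All control members carried Xist and 76.1% of the mutant members a UMI of 4 Y-linked genes, so genotype, sex and the embryos pooled cannot be told apart in any comparison of the libraries.

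The rhombic lip is the dorsal edge of the hindbrain, where the basic helix-loop-helix factor Atoh1 marks dividing and newborn glutamatergic precursors. In the spinal cord the matching population is called dI1. Its neurons switch on the homeodomain factors Barhl1, Barhl2, Lhx2 and Lhx9 as they leave the cycle, and many send axons across the midline under the guidance receptor Robo3. Evx1 is another homeodomain factor, best known from V0 commissural interneurons. Hox genes record position along the hindbrain and cord, with higher paralog numbers expressed further back, while Otx2 marks the forebrain and midbrain.

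The 3 genes that define the cells lie on chromosomes 2 and 6. In GRCm38 coordinates Barhl1 (ENSMUSG00000026805) spans chr2:28907679-28916668 on the minus strand, Atoh1 (ENSMUSG00000073043) chr6:64729125-64731245 on the plus strand and Evx1 (ENSMUSG00000005503) chr6:52313498-52318378 on the plus strand, all annotated as protein coding. Evx1 lies beside the HoxA cluster, whose member Hoxa5 is at chr6:52201754-52204587 on the minus strand.

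The 250 bases before the start of 4 genes are shown because the results below turn on them: Barhl1 for the rule itself, Hoxa5 as a gene lower in the mutant library, and Pax6 and Hes5 as genes higher there. They are RefSeq promoter windows of GRCm38.p6, 5′ to 3′ on the strand of the gene, at chr2:28916669-28916918 (minus) for the outer of 2 Barhl1 starts, chr6:52204588-52204837 (minus) for Hoxa5, chr2:105668646-105668895 (plus) for the outer of 2 Pax6 starts, and chr4:154960673-154960922 (plus) for Hes5. Capitals mark 2 motifs, GCCNNNGGC, a core bound by TFAP2 proteins, and CAGCTG, an E-box form bound by basic helix-loop-helix factors. Both read the same on either strand.
Barhl1: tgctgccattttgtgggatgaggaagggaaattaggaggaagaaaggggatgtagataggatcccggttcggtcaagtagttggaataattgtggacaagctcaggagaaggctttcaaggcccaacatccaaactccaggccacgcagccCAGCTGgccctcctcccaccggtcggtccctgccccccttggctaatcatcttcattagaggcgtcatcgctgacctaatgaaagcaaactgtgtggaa
Hoxa5: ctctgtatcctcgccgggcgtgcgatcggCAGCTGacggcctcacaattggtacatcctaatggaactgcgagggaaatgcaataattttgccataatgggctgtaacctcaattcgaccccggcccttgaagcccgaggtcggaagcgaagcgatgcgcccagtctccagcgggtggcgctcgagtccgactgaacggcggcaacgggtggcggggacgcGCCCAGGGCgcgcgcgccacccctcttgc
Pax6: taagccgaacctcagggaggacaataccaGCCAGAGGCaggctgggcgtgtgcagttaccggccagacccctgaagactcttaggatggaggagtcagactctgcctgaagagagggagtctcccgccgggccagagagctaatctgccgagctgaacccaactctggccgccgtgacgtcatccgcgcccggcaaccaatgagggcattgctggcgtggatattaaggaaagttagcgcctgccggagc
Hes5: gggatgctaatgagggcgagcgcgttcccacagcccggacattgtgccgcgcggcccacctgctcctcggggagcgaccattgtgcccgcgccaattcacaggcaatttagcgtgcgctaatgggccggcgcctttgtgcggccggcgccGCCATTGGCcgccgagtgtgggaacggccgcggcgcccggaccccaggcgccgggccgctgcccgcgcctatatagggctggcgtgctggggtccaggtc
CAGCTG began 99 bases before the Barhl1 start and 221 before that of Hoxa5, and GCCNNNGGC began 29 bases before the Hoxa5 start, 221 before that of Pax6 and 100 before that of Hes5. In these 4 windows no copies of the 2 motifs overlapped. Such matches are frequent. GCCNNNGGC was found in 13.7% and CAGCTG in 13.0% of all 32851 windows of 250 bases in the table. Of the 5349 genes tested below that had a window, 24.6% held GCCNNNGGC, against 21.3% of 183 genes that were 1.5-fold or more higher in the mutant library and 17.6% of 51 that were lower. For CAGCTG the same shares were 13.1%, 15.3% and 11.8%. A match describes the letters of a window and is not a mapped binding site.

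The files held 6148 control barcodes (83542433 UMIs) and 6063 mutant barcodes (79206144 UMIs), and 5 kept barcodes occurred in both, 1 of them a member in one library. The members carried 2030105 UMIs in the control library, a median of 9290.5 per cell, and 3276818 in the mutant library, a median of 9880.5. Doublet calling marked 0 control and 6 mutant members. Markers of mesenchyme and blood were scarce in them. Summed over 10 mesenchyme markers, such as Col1a1 and Pdgfra, they held 30 control and 39 mutant UMIs, and over 15 blood and vessel markers 28 and 17. Over 9 glial markers they held 207 control and 677 mutant UMIs, or 102 and 207 CPM, of which Fabp7 and Sox9 held the most, while Erbb3, Gfra3 and Cdh19 were at 0 in both libraries. Sensory neuron markers summed to 275 and 424 UMIs, or 135 and 129 CPM. The part of these transcripts in the results was not tested.

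The members made up 3.52% of kept control cells (3.05 to 4.04) and 5.08% of kept mutant cells (4.52 to 5.69), a difference of 1.56 percentage points (0.801 to 2.33). Neurons of any kind, by the same limits on neuronal, mesenchyme and glial genes, were 900 of the control cells and 1396 of the mutant ones, a difference of 8.99 points (7.49 to 10.5) in their share. As a share of those neurons the members were 22.0% (19.3 to 24.9) in the control and 20.3% (18.3 to 22.6) in the mutant library, a difference of -1.66 points (-5.19 to 1.81). The higher share of all cells in the mutant library thus went with a higher share of neurons as a whole. Just inside the limit, 33 control and 35 mutant cells held exactly 2 UMIs of Barhl1, Atoh1 and Evx1, and just outside it 42 and 82 neurons held 1.

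Barhl1 was detected in 161 control and 233 mutant members, Atoh1 in 120 and 166, and Evx1 in 96 and 123. All 3 genes were found together in 46 control and 64 mutant cells. These genes chose the cells, so their levels are given as a description. Barhl1 stood at 406 counts per 1000000 UMIs (CPM; 379 to 435) in the control and 354 (334 to 375) in the mutant members, Atoh1 at 468 (439 to 499) and 382 (361 to 404), and Evx1 at 118 (103 to 134) and 104 (93.6 to 116). All 3 were within 1.5-fold between the libraries. In mesenchyme cells (3 or more UMIs of Prrx1, Prrx2 and Twist1, none of Elavl3 and Stmn2), which should lack it, a Barhl1 UMI was seen in 0.374% (control) and 0.506% (mutant) at median depths of 14707.5 and 14778 UMIs.

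The other genes of the rule are given as a description, since the rule sets or limits their counts. Elavl3 held 1977 control and 2955 mutant UMIs and Stmn2, a neuronal tubulin regulator, 4829 and 7404. Prrx1 held 7 and 9, Prrx2 20 and 14, and Twist1 5 and 7, while Sox10 was at 0 by the rule. Pou4f1 had 169 and 331 UMIs and Isl1 3 and 52.

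Lhx9, a marker of the dI1 type that the rule did not use, had a UMI in 163 of 198 cells of the control and in 224 of 284 of the mutant library. Its level was 728 CPM in the control members against 150 in the other control neurons, and 678 against 195 in the mutant library. Its partner Lhx2 was likewise high, at 805 against 189 CPM and 707 against 209. Barhl2, a close relative of Barhl1, stood at 206 against 33.4 CPM and 208 against 45.9. Olig3, a dorsal progenitor factor, was at 96.5 against 23.6 and 103 against 23.2. The inhibitory genes went the other way, with Slc32a1, the vesicular transporter of GABA and glycine, at 1.97 against 19.6 CPM and 3.66 against 36.8. The glutamate transporter gene Slc17a6 was found in 71 control and 104 mutant members, and 3 and 8 members held 2 or more UMIs of Gad1, Gad2 and Slc32a1. Not every marker was higher in the members. Neurod1, a factor of differentiating neurons, was at 73.4 against 276 CPM in the control and 60.7 against 115 in the mutant library, and Mab21l2 was at 142 against 146 and 134 against 173. Robo3 was at 266 against 181 CPM in the control but at 185 against 205 in the mutant library, and Slc17a6 at 120 against 73.4 and 98.6 against 83.0. Against the other neurons as a whole, Lhx2, Lhx9, Barhl2 and Olig3 thus went with the label of rhombic-lip and dorsal neurons in both libraries. Neurod1, Mab21l2 and, in the mutant library, Robo3 did not. Otx2, the forebrain and midbrain marker, was lower in the members, at 76.8 against 137 CPM and 93.7 against 167. Yet 28 control and 72 mutant members had an Otx2 UMI, 21 and 56 of them without a Hox UMI. In those cells Otx2 went against the rhombic-lip part of the label. Lhx9, Lhx2 and Barhl2 were not particular to the members. Many excitatory neurons outside the set (Slc17a6 present, no Gad1, Gad2 or Slc32a1 UMI) carried them too. Cells with Lhx9 made up 60.7% (control) and 59.2% (mutant) of that class, against 82.3% and 78.9% of members. For Lhx2 these shares were 60.7% and 58.4% against 76.8% and 73.9%, and for Barhl2 41.4% and 38.2% against 67.2% and 68.3%.

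Of 6647 genes compared with the other neurons, 110 were 2-fold or more higher in the members in both libraries (1.65%) and 31 were lower in both (0.466%). Ranked by the lesser of the 2 log2 ratios, the 20 leading genes included the coding Hox genes Hoxa3, Hoxa2, Hoxa5, Hoxb2, Hoxd3 and Hoxb4, and the Hox-cluster transcripts Hoxb3os, Hoxaas2 and Hotairm1. The first non-Hox gene was Evx1os, the antisense neighbour of Evx1, at 163 CPM in members against 9.45 in other neurons of the control and 139 against 12.0 of the mutant library. It was followed by Nkd1, an inhibitor of Wnt signalling, at 390 against 35.7 and 380 against 35.0 CPM. Sema7a, a membrane-bound semaphorin, had log2 ratios of 3.92 and 3.30, and Sstr2, a somatostatin receptor, 3.09 and 2.61. Tafa4, Gmpr, Gm15050, Gsg1l, Rab15, 1700003F12Rik and Sel1l3 completed the 20, with lesser log2 ratios between 2.65 and 3.27. The lowest genes were led by Lhx5, Nrxn3, Id4, Lhx1os and Lhx1. Hoxb3os, Hoxaas2, Hotairm1 and Evx1os overlap or adjoin coding genes on the other strand, and without a stated strand setting their reads cannot be told from those of their neighbours. Evx1 is a gene of the rule, so the high level of Evx1os can follow from how the cells were chosen.

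The members were not uniform, and were described by the presence of Barhl1 and Evx1. Cells with Barhl1 and no Evx1 numbered 100 and 152 (control and mutant), cells with both 61 and 81, and cells with Evx1 and no Barhl1 35 and 42. Their median depths ran from 8839.5 to 9762 UMIs in the control and from 9436.5 to 10453 in the mutant library. Atoh1, although part of the rule, had its highest level in cells with Barhl1 and no Evx1. It stood at 716, 371 and 35.4 CPM along this order in the control and 504, 349 and 33.2 in the mutant library. Cells with both genes met the rule without Atoh1, while some cells with Barhl1 and no Evx1 met it only through Atoh1. The rule therefore shapes part of this order.

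Genes of later neurons ran the other way. Robo3, the receptor of commissural axons, stood at 112, 272 and 635 CPM in the control and 52.1, 242 and 604 in the mutant library. Between the outer classes its log2 ratio was 2.50 (2.17 to 2.84) and 3.54 (3.18 to 3.90). Nefm, a neurofilament subunit, was at 255, 581 and 1995 CPM and at 519, 441 and 1412 CPM, so that in the mutant library the middle class was not above the first. Slc17a6 was at 40.2, 133 and 291 CPM and at 74.0, 77.1 and 259 CPM, where the first 2 mutant values did not differ beyond counting error. Lhx9 increased along the order in both libraries, from 470 to 1043 CPM and from 421 to 1308 CPM. Pou3f1, a POU factor, was highest in cells with both genes, at 443, 940 and 448 CPM in the control and 429, 891 and 511 CPM in the mutant library. The libraries differed in other contrasts, since the log2 ratio of the last over the first class was -2.02 (-2.89 to -1.25) and -0.19 (-0.71 to 0.30) for Nhlh1, a factor of newborn neurons, and 2.97 (2.76 to 3.18) and 1.44 (1.30 to 1.59) for Nefm. For Cntn2 it was -0.11 (-0.35 to 0.14) and 0.67 (0.45 to 0.89). The order of the classes is by detected genes and not by time.

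**Figure D1:**
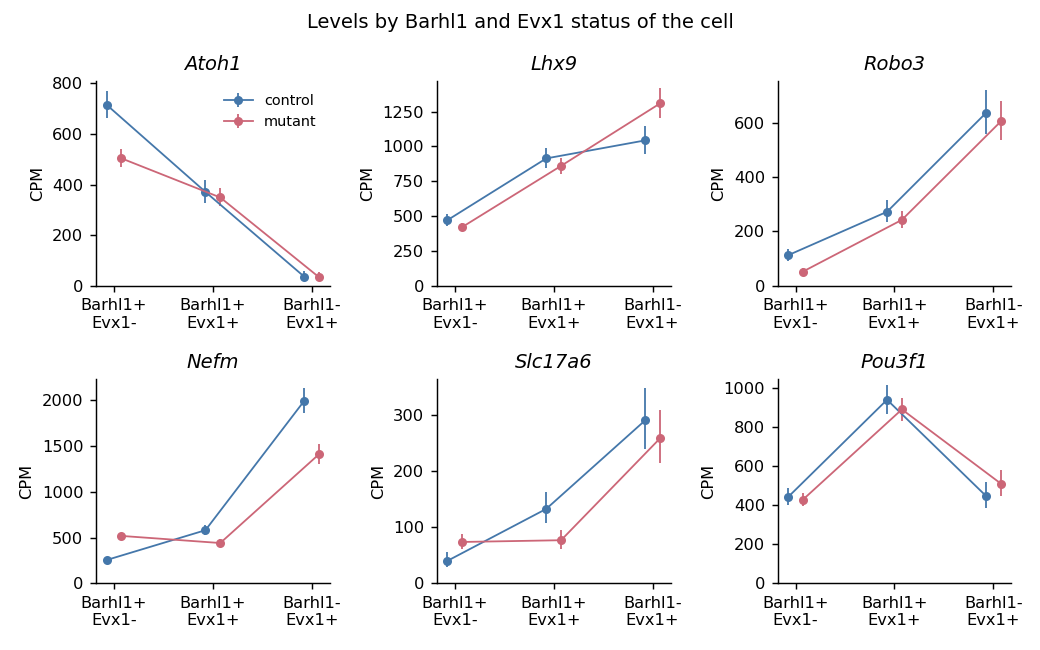
Levels in CPM (vertical axes) of 6 genes in members split by Barhl1 and Evx1 UMIs (horizontal axes), with the control library in blue and the mutant library in red. Points are summed levels of 1 library and bars are 95% Poisson intervals of counting error. Atoh1, itself a gene of the rule, falls and Robo3 climbs along the order in both libraries, and Pou3f1 peaks in cells with both genes.

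To compare the genotypes, the UMIs of the members were summed in each library. Of 6651 genes with 100 or more UMIs outside the rule, 221 were 1.5-fold or more higher in the mutant library (3.32%) and 71 were lower (1.07%), 4.39% in either direction. The median log2 ratio of mutant over control was 0.01, so the bulk of genes was level between the libraries. Without strongly cycling cells, described below, 6115 genes were tested, of which 117 were higher (1.91%) and 65 lower.

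**Figure D2:**
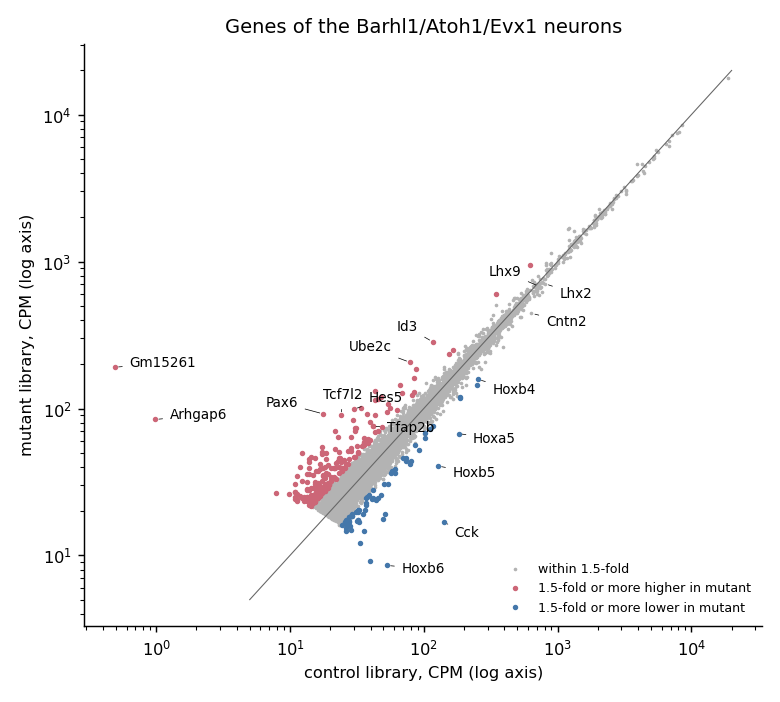
Level of each tested gene in the members, in CPM, in the control (horizontal, log axis) and mutant library (vertical, log axis), 1 point per gene, with the line of equality. The 221 genes 1.5-fold or more higher in the mutant library are red and the 71 lower are blue, and most points follow the line, while the Hox genes and Cck lie below it.

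Factors of the rhombic lip and dI1 neurons were level between the libraries. Of 17 in the list, 14 had enough UMIs. Of these, 1 was higher, against 3.32% of all genes, and 0 were lower, against 1.07%. Their median log2 ratio was -0.10. Meis2 held 2315 control and 3441 mutant UMIs, a log2 ratio of -0.12 (-0.20 to -0.04), and Lhx2 1635 and 2318, a ratio of -0.19 (-0.28 to -0.09). Lhx9 stood at -0.10 (-0.20 to -0.01). The gene that was higher was Pax6, which is treated below. Of 5 tested factors of the Evx1 and V0 type, Dbx1, a progenitor factor, stood at 0.15 (-0.09 to 0.39) and Evx1os at -0.23 (-0.43 to -0.02). Lhx1, a LIM factor of interneurons, was the 1 that was higher, against 3.32% of all genes. It had 114 and 329 UMIs and a log2 ratio of 0.84 (0.53 to 1.16). Of the transmitter genes Slc17a6 alone had 100 UMIs, at -0.28 (-0.52 to -0.03), and Slc18a2, a monoamine transporter, held 28 and 48 UMIs.

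Hox genes were lower in the mutant members. Of 14 genes in the hindbrain Hox list, 12 were tested. Of these, 8 were 1.5-fold or more lower, against 1.07% of all genes, and 0 were higher, against 3.32%. All 12 log2 ratios were below 0, with a median of -0.66 against 0.01 for all genes. Hoxb5 (ENSMUSG00000038700, chr11:96303336-96306121) held 260 UMIs, or 128 CPM, in the control and 133, or 40.6 CPM, in the mutant members, a log2 ratio of -1.66 (-1.97 to -1.35). Hoxa5 held 370 and 221 UMIs, a ratio of -1.43 (-1.68 to -1.19), and Hoxc5 72 and 48, a ratio of -1.28 (-1.83 to -0.73). Among paralog group 4, Hoxb4 had 516 and 517 UMIs (-0.69, -0.87 to -0.51), Hoxa4 164 and 145 (-0.87), Hoxc4 187 and 171 (-0.82) and Hoxd4 239 and 249 (-0.63). In group 3 no gene reached 1.5-fold, with Hoxa3 and Hoxb3 both at -0.48 and Hoxd3 at -0.28. In group 2, Hoxa2 was lower, with 226 and 237 UMIs (-0.62, -0.89 to -0.35), while Hoxb2 stood at -0.22 (-0.41 to -0.03). Hoxb6 and Hoxb8, outside the list, were lower still, with 108 and 28 UMIs (-2.64, -3.29 to -2.03) and 80 and 30 UMIs (-2.11, -2.76 to -1.48). Both rested on few cells, with Hoxb6 in 9.09% of control and 1.06% of mutant members and Hoxb8 in 11.1% and 2.82%.

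The difference was larger in paralog group 5 than in group 4, and larger in group 4 than in groups 2 and 3, which did not differ beyond counting error. Summed over the genes of a group, the log2 ratio was -0.36 (-0.51 to -0.20) for group 2, -0.43 (-0.57 to -0.29) for group 3, -0.72 (-0.84 to -0.60) for group 4 and -1.495 (-1.68 to -1.32) for group 5. Hoxb1 of group 1 had 32 and 35 UMIs (-0.56, -1.30 to 0.18). The other neurons of the same libraries, which share no cells with the members, had -0.09, -0.54, -0.78 and -1.94 for groups 2 to 5. The pattern was thus seen in both sets of neurons. In the mesenchyme Hoxa2 held 774 and 809 UMIs (0.61, 0.47 to 0.75), the opposite direction, and Hoxa5 only 10 and 2 (-1.78, -5.01 to 0.45). Excitatory neurons (Slc17a6 present, no Gad1, Gad2 or Slc32a1 UMI, and not members) had a Hox list median of -1.32.

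**Figure D3:**
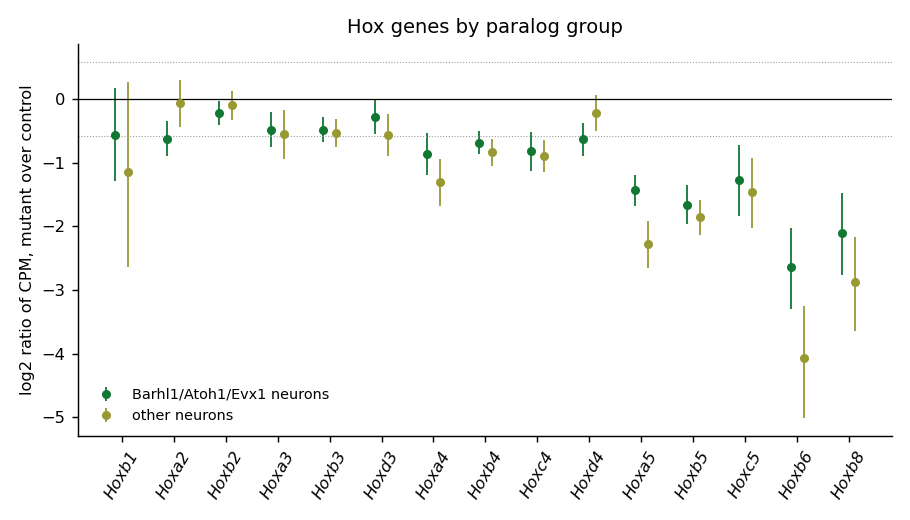
Log2 ratio of CPM, mutant over control library (vertical axis), for each Hox gene with 30 or more UMIs in the members, ordered by paralog group (horizontal axis), in the members (green) and the other neurons (olive). Bars are 95% intervals of counting error and dotted lines mark 1.5-fold. Ratios between -0.62 and -0.07 in group 2 give way to ratios below -1 in groups 5 to 8 in both sets of cells.

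The same difference was seen in the number of cells. Members with 3 or more UMIs of the Hox list were 126 of 198 (63.6%, 56.5 to 70.3) in the control and 138 of 284 (48.6%, 42.6 to 54.6) in the mutant library, a difference of -15.0 points (-24.0 to -5.75). With each cell thinned to 5000 UMIs, which left out 6 control and 8 mutant members, the shares were 53.1% and 44.2%. A second random draw to the same depth gave 57.3% and 44.2%. Among mesenchyme cells, 5.95% and 7.17% held as many. A UMI of Hoxa5, Hoxb5, Hoxc5, Hoxb6 or Hoxb8 was found in 61 control (30.8%) and 52 mutant members (18.3%), or 30.7% and 14.5% after thinning. The labels place the tissue in front of the otic placode, and Hox genes of groups 5 to 8 are known from more caudal levels. Where the heads were severed was not measured here, and its part in the difference was not tested.

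Within the Hox-positive members the list median was -0.33, with Hoxb5 at -1.33, Hoxa5 at -1.11 and Hoxb4 at -0.36. In members without a UMI of the 5 caudal genes the median was -0.082 over 9 tested genes. Hoxa5, Hoxb5 and Hoxc5 belong to the list, so both sets were chosen by UMIs of list genes. The selection shapes these 2 medians, which are a description. In cells with Barhl1 and no Evx1 the median was -1.25.

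Otx2 was detected in 28 control members (14.1%, 9.61 to 19.8) and 72 mutant members (25.4%, 20.4 to 30.8), a difference of 11.2 points (3.70 to 18.3), and after thinning in 22 of 192 and 56 of 276. Of these 28 and 72 cells, 6 and 14 also held 3 or more Hox UMIs. The deepest member of each library, at 45472 and 43421 UMIs, was among them, and whether such cells were mixed was not tested. Members with neither a Hox nor an Otx2 UMI numbered 40 and 78, and those with Otx2 and no Hox UMI 21 and 56. By level Otx2 held 156 and 307 UMIs, a log2 ratio of 0.29 (0.0033 to 0.57), which is under 1.5-fold. Among the other neurons 35.3% and 40.9% had an Otx2 UMI, and among mesenchyme cells 1.28% and 2.34%.

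**Figure D4:**
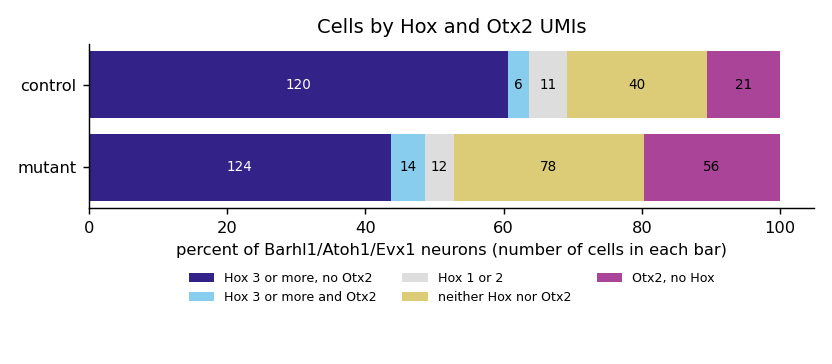
Makeup of the members in the control and mutant library by their UMIs of the Hox list and of Otx2, in percent of members (horizontal axis), with the number of cells printed in each bar. The Hox-bearing bar without Otx2 is shorter in the mutant library, where it holds 124 of 284 cells against 120 of 198.

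Genes of the midbrain and isthmus, the border of midbrain and hindbrain, had a median log2 ratio of 0.46 over 8 tested genes, of which 3 were higher, against 3.32% of all genes, and 0 lower, against 1.07%. Wnt1, a signal of the dorsal midline and isthmus, held 23 and 114 UMIs (1.62, 0.96 to 2.33). En1, a homeodomain factor of this region, had 22 and 88 (1.31, 0.62 to 2.05) and was also the only tested gene of the list of other neuron subtypes, in which Gata3 held 21 and 68 UMIs. Pax3, a dorsal factor, had 62 and 153 (0.61, 0.18 to 1.06). Of the Wnt1 UMIs, 10 cells carried 87.0% in the control and 57.9% in the mutant library. Lmo1, a LIM-only protein with the second most UMIs of the list, stood at 0.35 (0.08 to 0.62). Within members without a Hox UMI the list median was -0.17 and Wnt1 stood at -0.54 (-1.48 to 0.44), and within Hox-positive members Wnt1 had 6 control and 80 mutant UMIs.

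Cell cycle genes were higher in the mutant members. Of 21 tested, 13 were 1.5-fold or more higher, against 3.32% of all genes, and 0 were lower, against 1.07%. The median log2 ratio was 0.79. Ube2c, a ubiquitin-conjugating enzyme of mitotic exit, had 160 and 676 UMIs (1.39, 1.14 to 1.65), and Top2a, a topoisomerase of dividing cells, 98 and 391 (1.31, 0.98 to 1.64). The proliferation marker Mki67 had 31 and 152 (1.60, 1.04 to 2.21), and the mitotic cyclin Ccnb1 44 and 231 (1.70, 1.23 to 2.20). The other 9 were Ccna2, Birc5, Mcm3, Cdk1, Cdc20, Ccnb2, Mcm5, Mcm6 and Pcna, with log2 ratios from 0.62 for Pcna to 1.64 for Ccna2. In contrast, Cdkn1c, an inhibitor of the cycle with the most UMIs of the list, was level at -0.09 (-0.15 to -0.02), as was the cyclin Ccnd2 at -0.06 (-0.21 to 0.10). Nusap1, Kif15, Cenpe, Tpx2 and Cenpf, spindle and centromere genes outside the list, were among the 15 highest genes, with log2 ratios from 1.61 for Cenpf to 2.01 for Nusap1.

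The UMIs of these genes were spread unevenly over the members. With 18 genes of the list (without Ccnd and Cdkn genes), 9 control members (4.55%, 2.10 to 8.45) and 34 mutant members (12.0%, 8.44 to 16.3) held 20 or more UMIs, a difference of 7.43 points (2.16 to 12.4). This limit was set after the values were seen, and 2 control and 1 mutant cells lay between 20 and 29 UMIs while 3 and 11 lay between 10 and 19. The strongly cycling cells carried 49.5% of the 1004 control and 79.5% of the 3357 mutant UMIs of these genes. Their median depth was 11639 UMIs in the control and 16428.5 in the mutant library against 9197 and 9628 in the remaining members. After thinning to 5000 UMIs, 3.65% of control and 11.2% of mutant members held 10 or more of the UMIs, against 6.06% and 15.8% before.

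Strongly cycling cells sat near the lower edge of the neuron limit, with a median of 5 control and 8 mutant UMIs of Elavl3 and Stmn2 against 30 in the remaining members of either library. Of them 7 control and 27 mutant cells held Atoh1, 1 and 6 held Evx1, and 0 and 4 were called doublets. Without these cells the list median was 0.033, and Mki67 had 11 and 16 UMIs, which is a description, since the cells were chosen by their UMIs of this list. Of the strongly cycling cells, 4 in the control and 21 in the mutant library were Hox-positive, and the list median was 1.48 within Hox-positive members against 0.10 within members without Hox UMIs. Among the other neurons 24.8% of control and 21.2% of mutant cells held 20 or more UMIs, and the list median was -0.16.

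**Figure D5:**
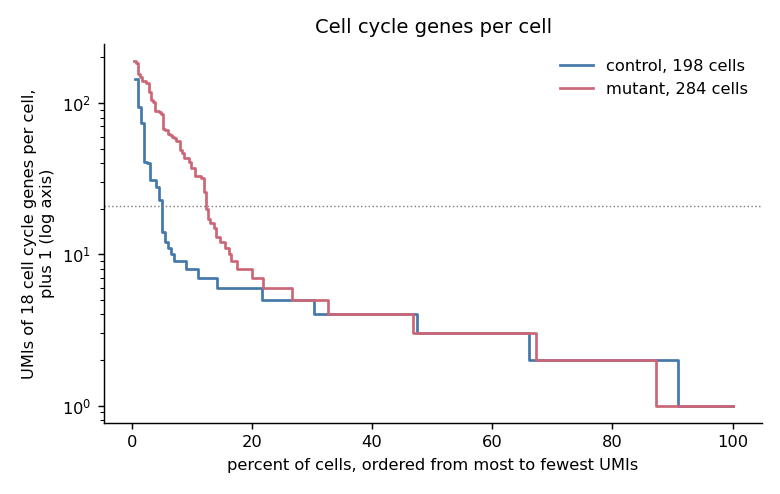
UMIs of 18 cell cycle genes per member, plus 1 (vertical, log axis), against the percent of members ranked from most to fewest UMIs (horizontal axis), for the control (blue) and mutant library (red). The dotted line marks 20 UMIs, which 4.55% of control and 12.0% of mutant members reach.

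Of 21 tested genes of progenitors and neurogenesis, 7 were higher, against 3.32% of all genes, and 0 lower, against 1.07%, with a median log2 ratio of 0.10. Hes5, a Notch target of progenitors, had 61 and 324 UMIs (1.72, 1.32 to 2.14). The inhibitors of differentiation Id1 and Id3 had 69 and 328 UMIs (1.56, 1.18 to 1.95) and 237 and 931 UMIs (1.28). Msx1, a dorsal homeodomain factor, stood at 0.99, Neurog2, a proneural factor, at 0.97, and Pax3 at 0.61. The strongly cycling cells carried 38 of 61 control and 283 of 324 mutant Hes5 UMIs, and without them Hes5 stood at 0.33 (-0.44 to 1.14). By contrast Id3 was at 0.63 (0.33 to 0.93) without these cells and Id1 at 0.66 (0.12 to 1.22). The genes of this list with the most UMIs, Vim (-0.07) and Hes6 (-0.04), were level between libraries. In the glial list Fabp7, a fatty acid binding protein of radial glia, had 135 and 471 UMIs (1.11, 0.83 to 1.40) and Sox9, a progenitor and glial factor, 51 and 146 (0.83, 0.36 to 1.32). Both are also expressed in neural progenitors, and the source of their UMIs in these cells was not tested.

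Pax6, a homeodomain factor of progenitors and of some rhombic-lip neurons (ENSMUSG00000027168, chr2:105668900-105697364), had 36 control UMIs, or 17.7 CPM, and 301 mutant UMIs, or 91.9 CPM, a log2 ratio of 2.37 (1.87 to 2.91). Its direction was opposite in the other neurons, with 257 and 222 UMIs (-0.77, -1.04 to -0.51). Cells with 3 or more Pax6 UMIs numbered 3 of 198 (1.52%) and 18 of 284 (6.34%), a difference of 4.82 points (1.01 to 8.52), and held 91.7% and 92.7% of the Pax6 UMIs. After thinning they were 1.56% and 4.35%. In the mutant library 16 of the 18 held Barhl1, yet 15 had no Lhx9 UMI, 15 no Atoh1 and 17 no Evx1, while 13 held Lhx1, 12 Otx2, 12 Slc17a6 and 7 Sst, and none was called a doublet. Most of these 18 cells thus held Barhl1 but no UMI of Lhx9, the marker found in most members. Tcf7l2, a Wnt pathway factor, was found in 8 of the 18 and had 49 and 294 UMIs over all members (1.89, 1.45 to 2.36). Of these UMIs, 10 cells carried 85.7% in the control and 83.3% in the mutant library.

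Among 28 tested axon guidance genes, 2 were higher, against 3.32% of all genes, 1 was lower, against 1.07%, and the median log2 ratio was -0.06. Robo2, a Slit receptor, had 64 and 182 UMIs (0.82, 0.40 to 1.25) and Unc5c, a netrin receptor, 32 and 89 (0.78, 0.19 to 1.42). Cxcr4, a chemokine receptor of migrating rhombic-lip neurons, had 207 and 222 UMIs (-0.59, -0.87 to -0.31). Just under the 1.5-fold limit lay Robo3, with 541 and 606 UMIs (-0.53, -0.70 to -0.36), and Cntn2, an axonal adhesion protein with 1295 and 1457 (-0.52, -0.63 to -0.41). The netrin receptor gene Dcc stood at -0.32 (-0.45 to -0.20). Within Hox-positive members Robo3 was at -0.20 (-0.39 to -0.00) and Cntn2 at -0.29 (-0.42 to -0.17), and within members without Hox UMIs at -0.61 (-1.04 to -0.17) and -0.74 (-1.01 to -0.47).

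Genes of neuronal maturation were level. Of 29 tested, 1 was higher, against 3.32% of all genes, and 0 were lower, against 1.07%, with a median log2 ratio of -0.02. The higher gene was Cplx2, a synaptic release protein, with 37 and 100 UMIs (0.74, 0.19 to 1.33). Tubb3, the neuronal tubulin, stood at -0.14 (-0.18 to -0.10) and Stmn1 at 0.24 (0.20 to 0.28). Among 5 tested cadherins Pcdh17 alone was higher (0.69, 0.21 to 1.20), against 3.32% of all genes, while Pcdh8 stood at 0.22 and Cdh2 at -0.06. None of 8 tested channel and receptor genes was 1.5-fold apart, against 4.39% of all genes. Scn3a, a sodium channel, stood at 0.15 and Cacna2d1, a calcium channel subunit, at -0.05. None was 1.5-fold apart among 6 stress genes, led by Hsp90aa1 (0.10) and Hsph1 (-0.25). Nor was either of 2 markers shared with sensory neurons, Neurog1 (-0.49, -0.90 to -0.08) and Shox2 (0.25, -0.14 to 0.66).

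The targeted genes were scarce in these cells. Tfap2a had 19 UMIs in 6 control members and 25 UMIs in 9 mutant members (-0.29, -1.21 to 0.65). Tfap2b had 84 UMIs in 8 control members and 248 in 23 mutant members, 41.4 and 75.7 CPM (0.87, 0.51 to 1.25). The share of members with Tfap2b differed by 4.06 points (-0.69 to 8.49), and 10 cells carried 81.5% of its mutant UMIs. By level Tfap2b was thus higher in the library labelled mutant, on few cells. In excitatory neurons it was lower, with 652 and 526 UMIs (-1.21, -1.38 to -1.04). In inhibitory neurons it was higher, with 73 and 286 UMIs (0.71, 0.33 to 1.10), and in sensory neurons it stood at 0.065 (-0.18 to 0.31). Of the cells with Tfap2b, 3 control and 17 mutant cells held Otx2. A 3′ library counts transcript ends, so UMIs of an intact and of a recombined floxed allele cannot be told apart, and these values do not check the deletion. Tfap2d, a relative that was not targeted, had 23 and 56 UMIs (0.59, -0.13 to 1.36).

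Some genes with the most extreme ratios were no markers of these neurons. Gm15261 (1 and 626 UMIs) and Arhgap6 (2 and 276 UMIs) were highest, and both were as far apart in the mesenchyme, with 85 and 8534 and with 91 and 3510 UMIs. Gm15261 (chrX:169037674-169106536, minus strand) lies on the opposite strand within Arhgap6 (chrX:168795099-169304435, plus strand), so their reads may not be separable. Both are X-linked, and both were higher in the mutant library, whose members held Y-linked UMIs and no Xist. The source of this difference was not tested. Lamp5, a lysosomal membrane protein of neurons, had 24 and 132 UMIs (1.77, 1.13 to 2.46), and Sparc, a matrix protein, 28 and 149 (1.72, 1.13 to 2.36). In the control and mutant library 10 cells carried 91.7% and 78.0% of the Lamp5 UMIs and 85.7% and 57.7% of the Sparc UMIs. The lowest gene was Cck, a neuropeptide, with 287 and 55 UMIs (-3.07, -3.52 to -2.65), but 7 cells in each library held it and 1 control cell carried 213 of the UMIs. Other low genes were Ndufa4l2 (-1.46), Socs2 (-1.43), Pde2a (-0.98), Gadd45a (-0.93), Cap1 (-0.92), Ajap1 (-0.90), Btaf1 (-0.88) and Zc3h4 (-0.88). Cap1, an actin regulator, was lower in the other neurons too, at -0.87.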

How the data were processed

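The deposited files hold raw UMI counts (whole numbers, genes by barcodes) that were not normalized. Per the labels and file headers, the authors demultiplexed reads of 10x 3′ libraries with bcl2fastq and counted them with Cell Ranger 6.0.0 against mm10; Seurat 4.3.0 is also named. The strand setting is not given in the sources used here. Of 32285 gene identifiers, 32158 were found in GENCODE M21. Barcodes with under 200 or over 7500 genes or over 10% mitochondrial UMIs were removed. Doublets were called by Scrublet in scanpy 1.11.5 and kept. UMIs were summed per library over members, scaled to 1000000 UMIs (CPM) and compared for genes with 100 or more UMIs, without the 11 genes of the rule. Intervals came from scipy 1.17.1, and functions were tested on simulated data. The members, the 19 gene lists and the 1.5-fold limit were chosen with earlier results of these data known. Named were the genes of the rule, list members past 1.5-fold with an interval off 0, the 2 members of each list with the most UMIs, the 15 highest and 15 lowest ratios without sex-linked, haemoglobin and mitochondrial genes, and 20 leading genes. Genes named beyond these were chosen after their values were seen. Drgx was not analysed here, and a few genes that these rules name are not reported here.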

Additional observations from a re-analysis of the deposited data

Results flagged for a closer look

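Several genes had opposite directions in the Barhl1/Atoh1/Evx1 neurons and in another class of neurons from the same libraries, with both counting intervals off 0. The differences were not tested, since each group had 1 library, and every named gene was set beside every class. Against sensory neurons, the log2 ratio of mutant over control was 1.70 in the members and -0.63 in the sensory neurons for Ccnb1, 1.66 and -0.77 for Tpx2, 1.12 and -1.27 for Ccnb2, 1.17 and -1.45 for Cdc20, 1.39 and -0.65 for Ube2c, and 1.4999 and -0.998 for Birc5. Sensory neurons numbered 95 control and 31 mutant cells. Against inhibitory neurons, Cenpf had 1.61 and -0.86 and Cdc20 1.17 and -0.67. Against excitatory neurons, Top2a had 1.31 and -0.63 and Cdk1 1.42 and -0.66. All of these are cell cycle genes.

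Outside the cycle, Tfap2b had 0.87 in the members and -1.21 in excitatory neurons, and Cplx2 had 0.74 in the members and -0.98 in sensory neurons. Among the members, Tfap2b was found in only 8 control and 23 mutant cells.

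Xist was present in all control members (100%) and in 0% of mutant ones, and a UMI of 4 Y-linked genes in 76.1% of mutant and 0% of control members. The pooled embryos of the 2 libraries thus differed in sex as well as in genotype, and the part of sex in any difference was not tested.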

How the results depend on the processing

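No paired analysis was possible because each group had 1 library. TMM scaling shifted all log2 ratios by -0.03 and left 208 genes higher and 83 lower. With a minimum of 50 UMIs, 469 (5.42%) of 8661 tested genes were higher and 180 (2.08%) lower. With a minimum of 300, they were 36 (1.16%) and 16 (0.517%) of 3092. After thinning to 5000 UMIs, when fewer genes passed the minimum, they were 78 (1.99%) and 42 (1.07%) of 3911. The following sets of cells were chosen after the data were seen. Higher genes numbered 117 of 6115 tested (1.91%) without strongly cycling cells and 114 of 4860 (2.35%) in Hox-positive cells. In cells with 10 or more UMIs of Elavl3 and Stmn2 they were 141 of 6035 (2.34%). The Hox median was -1.25 in cells with Barhl1 and no Evx1 (an alternative set earlier), -0.33 in Hox-positive cells and -0.082 in cells without a UMI of the 5 caudal Hox genes. The last 2 sets were chosen by UMIs of list genes, which shapes their medians. The cell cycle median was 0.033 without strongly cycling cells, 1.48 in Hox-positive and 0.10 in Hox-negative cells. In Hox-negative cells the medians were 0.34 for neuronal maturation, 0.059 for rhombic-lip factors, -0.17 for progenitor genes and -0.17 for position genes.

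Single genes changed sign, and the cause was not tested except where stated. In cells with Barhl1 and no Evx1, Ndufa4l2 and Socs2 were both at 0.16 and Mcm5 at -0.022. Without strongly cycling cells, Ccnb1 was at -0.18, Cenpf at -0.43, Top2a at -0.85, Cdk1 at -1.09, Ube2c at -0.066 and Birc5 at -0.50. These cells were removed by their UMIs of the cell cycle list, so this change follows from the selection. In Hox-positive cells Cplx2 was at -0.37. In Hox-negative cells Wnt1 was at -0.54, Socs2 at 0.76, Mcm5 at -0.26, Cdc20 at -0.043 and Id3 at -0.11. Without the 5 caudal Hox genes, Hoxc4 was at 0.068 and Hoxd4 at 0.43. With 10 or more UMIs of Elavl3 and Stmn2, Neurog2 was at -1.05 and Msx1 at -0.17. The difference in the share of kept cells ranged from 1.10 to 2.28 points and that in the share of neurons from -2.88 to -0.45 points over all alternatives run.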

Other observations

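Isl1, a LIM factor of motor and sensory neurons, had 3 UMIs in 1.52% of control members and 52 UMIs in 2.46% of mutant members, which by the rule held no Pou4f1 UMI. Gata3, a factor of inhibitory and V2 interneurons, had 21 UMIs in 1.01% of control and 68 UMIs in 1.76% of mutant members. Both genes rested on few cells, and neither was among the tested genes.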
